A study of Homo sapiens with 6 samples.

Results

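Gene-body R-loops that were called in HEK293T cells only after exposure to N2-heptynyl-dG are described here. They were chosen by comparing the 2 peak lists of the study, as the peaks of the treated list that shared no base with an untreated peak of the same strand, and whose midpoint lay inside an annotated transcript but outside every promoter window and every terminal window. Promoter windows took in the 1000 bp before and the 100 bp after each transcript start, and terminal windows the 100 bp before and the 1000 bp after each transcript end, in GENCODE release 44 mapped to GRCh37 (hg19). The rule selected 1007 peaks out of 21316 in both lists together, and they are called members below. They make up 39.0% of the 2580 gene-body peaks of the treated list, and 3411 of all 11085 treated peaks (30.8%) had no same-strand untreated partner. In the other direction, 803 of 2405 untreated gene-body peaks (33.4%) had no treated partner. These shares come from the contrast that chose the members and are given as a description.

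The cells were wild-type HEK293T cells, a human embryonic kidney line, grown untreated or with 10 μM N2-heptynyl-dG in the medium for 3 h, and both groups were then labeled with 5 mM N3-kethoxal for 10 min. The labels name 2 spKAS-seq samples of each condition and 2 inputs. R-loops were deposited as 1 list of positions per condition, attached to replicate 1, so that no spread between replicates exists for any value and no difference between conditions could be tested. The lists carry no height or p-value, and the depth behind each peak is unknown.

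An R-loop forms when RNA anneals back to its DNA template and leaves the other DNA strand single-stranded. N3-kethoxal labels unpaired guanines, and strand-specific sequencing of the labeled DNA (spKAS-seq) tells the strands apart. N2-heptynyl-dG is a nucleoside whose bulky alkyl group sits on the minor-groove face of guanine, and cells can incorporate it into the genome. R-loops are best known from the first kilobases of genes with GC-rich starts and from the regions past polyadenylation sites, and G-quadruplexes, stacked 4-stranded folds of G runs, can form on the displaced strand.

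Members whose own strand held many G-quadruplex motifs are shown because G runs are where such folds can form. The strand of a peak is the one given in the deposited lists, and the sources used here do not say whether it is the labeled strand or its complement. The motif is GGG or a longer G run, 4 times, with loops of 1 to 7 bases, searched on both strands without overlaps. It was found on the strand of the peak in 146 of 1007 members (14.5%, 95% Wilson interval 12.5% to 16.8%) and on the other strand in 186 (18.5%, 16.2% to 21%). Of 312175 windows of 500 bp set every 5000 bp through the same gene-body territory, 2.51% held it when read on the plus strand and 2.52% when read on the other. With windows of 2000 bp on either side of starts and ends, the share of members on the strand of the peak was 8.08% (5.61% to 11.5%). A member is counted once however many motifs it holds, and all intervals here cover counting error only. The stretches below are GRCh37 reference sequence on the strand of the peak, 5′ to 3′, with each motif in capitals.
TUBB8B, chr18:63855-64000, minus strand: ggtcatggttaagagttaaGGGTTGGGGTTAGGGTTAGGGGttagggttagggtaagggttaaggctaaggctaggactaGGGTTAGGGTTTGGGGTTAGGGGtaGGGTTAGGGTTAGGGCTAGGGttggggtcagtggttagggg
AFAP1, chr4:7865717-7865879, minus strand: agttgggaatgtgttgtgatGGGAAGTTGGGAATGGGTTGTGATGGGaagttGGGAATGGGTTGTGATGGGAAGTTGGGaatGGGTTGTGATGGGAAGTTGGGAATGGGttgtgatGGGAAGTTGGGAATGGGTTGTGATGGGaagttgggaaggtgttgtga
ENSG00000288107, chr10:135390193-135390357, plus strand: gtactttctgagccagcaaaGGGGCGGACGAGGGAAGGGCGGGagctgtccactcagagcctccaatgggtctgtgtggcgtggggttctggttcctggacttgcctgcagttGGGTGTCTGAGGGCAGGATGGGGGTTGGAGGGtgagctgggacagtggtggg
POM121B, chr7:72715921-72715989, minus strand: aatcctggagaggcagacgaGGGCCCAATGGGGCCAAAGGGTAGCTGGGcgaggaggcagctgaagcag

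TUBB8B, a tubulin gene, had 8 motifs in its 500 bp member, and AFAP1, the gene of an actin filament-associated protein, had 5 in 500 bp. Both stretches are tandem repeats in introns of the host gene. That of TUBB8B includes copies of TTAGGG, the repeat of human telomeres, among variants of it. The whole 500 bp member in TUBB8B held 30 copies on the strand of the peak and 0 on the other strand. It lay 63501 bp from the end of its chromosome. A member in DHRSX held 12 copies. In all, 3 of 1007 members (0.298%, 0.101% to 0.872%) held at least 10 copies, against 3 of 312175 regular windows on either strand. There was 1 such peak among the 1573 gene-body peaks shared with the untreated list. There were 0 among the 803 untreated-only gene-body peaks, which allows a share of up to 0.374%. For a count of 0, the limit given in this report is 3 counts of the total. The upper Wilson limit here was 0.476%. Of all 1007 members, 20 lay within 500000 bp of a chromosome end. This was not counted for the regular windows or the other gene-body peaks, so that the number has no comparison.

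A second kind of repeat carried its G on the strand of the peak without forming the motif. These stretches are shown because their GC skew, (G - C)/(G + C) counted along the strand of the peak, was the highest among intronic members without a motif, and they were chosen after these values were seen. Runs of 2 or more G are in capitals.
COL18A1, chr21:46920482-46920601, plus strand: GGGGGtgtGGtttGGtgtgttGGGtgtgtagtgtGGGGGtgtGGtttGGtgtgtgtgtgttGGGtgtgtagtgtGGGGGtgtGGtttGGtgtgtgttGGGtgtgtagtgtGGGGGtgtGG
GOLM1, chr9:88668030-88668149, minus strand: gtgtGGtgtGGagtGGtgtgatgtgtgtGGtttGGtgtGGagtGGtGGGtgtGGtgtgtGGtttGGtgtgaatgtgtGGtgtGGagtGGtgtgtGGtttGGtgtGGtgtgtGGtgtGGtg
EGFR, chr7:55235196-55235315, plus strand: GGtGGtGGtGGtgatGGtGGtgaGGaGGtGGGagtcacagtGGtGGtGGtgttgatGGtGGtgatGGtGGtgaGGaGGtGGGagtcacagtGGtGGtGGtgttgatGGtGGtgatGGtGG
TXNRD2, chr22:19897250-19897369, minus strand: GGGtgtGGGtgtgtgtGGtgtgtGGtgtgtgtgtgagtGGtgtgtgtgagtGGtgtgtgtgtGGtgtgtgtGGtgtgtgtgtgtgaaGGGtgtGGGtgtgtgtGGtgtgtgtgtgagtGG

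The member in COL18A1, the gene of a basement-membrane collagen, had a GC skew of 0.98 at 55.8% GC, so that nearly all of its GC pairs had the guanine on the strand of the peak. The 120 bases shown hold 69 G and 0 C. The skew was 0.75 in GOLM1, a Golgi membrane protein gene, and 0.75 in EGFR, the epidermal growth factor receptor gene. In TXNRD2, which encodes a mitochondrial thioredoxin reductase, it was 0.70. All 4 members lay on the strand of their host gene, between 31957 and 148406 bp from its start, and at least 36250 bp from the nearest untreated peak of that strand. A skew above 0.4 was found in 12 of 1006 members with a base composition (1.19%, 0.684% to 2.07%) and a skew beyond the same limit on the negative side in 4 (0.398%, 0.155% to 1.02%). The regular windows were even on both sides, with 0.533% above and 0.530% below on the plus strand. The untreated-only gene-body peaks held 11 of 802 above the limit and 3 below, and the shared gene-body peaks 16 of 1569 above and 5 below.

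Coding sequence is shown for the 2 members of the fixed gene lists whose midpoint lay in a coding exon, HOXC13, a homeobox gene needed in hair follicles, and ZFP91-CNTF, a readthrough gene that begins with the zinc-finger gene ZFP91. Coding bases are in capitals.
HOXC13, chr12:54332986-54333105, plus strand: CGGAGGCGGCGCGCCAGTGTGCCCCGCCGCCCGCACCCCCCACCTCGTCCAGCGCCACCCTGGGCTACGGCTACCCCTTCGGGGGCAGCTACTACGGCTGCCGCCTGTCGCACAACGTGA
ZFP91-CNTF, chr11:58346916-58347035, plus strand: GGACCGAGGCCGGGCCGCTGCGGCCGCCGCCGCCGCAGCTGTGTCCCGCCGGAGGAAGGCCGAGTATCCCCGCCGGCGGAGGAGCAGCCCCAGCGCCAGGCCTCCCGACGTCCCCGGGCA
Both lay in exon 1, 431 and 331 bp from the start of the gene. Their peaks had 73.4% and 72.2% GC, no motif on the strand of the peak and skews of -0.0954 and -0.00277.

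The members were mostly narrow. A width of 500 bp was found in 548 members (54.4%), 750 bp in 292 and 1000 bp in 112. The widest, 2 members, reached 2250 bp. The median was 500 bp against 750 bp for the 1573 gene-body peaks of the treated list that overlapped an untreated peak. The 803 untreated-only gene-body peaks were about as narrow as the members, with a median of 500 bp (500 to 750 bp) and 52.1% (48.6% to 55.5%) at 500 bp. Since the rule selects peaks without a partner, values at its border were also read. There were 18 members that touched a same-strand untreated peak without sharing a base, and 18, 30 and 12 with a gap of 250, 500 and 750 bp. On the other side, the longest overlap was 250 bp in 85 shared gene-body peaks and 500 bp in 612. An untreated peak of the opposite strand overlapped 4 members. For the windows, the midpoint nearest to a start was 102 bp from it, 138 members lay within 200 bp of a start, and 159 treated-only peaks fell just inside the promoter window, at most 100 bp downstream of a start. From untreated peaks, most members were farther away. The median gap to the nearest same-strand untreated peak was 46500 bp (distribution-free 95% interval of the median 40250 to 52000 bp), and 338 members (33.6%) were more than 100000 bp away. For the untreated-only gene-body peaks, the median gap to a treated peak was 42500 bp (35250 to 53250 bp).

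Most members lay in introns. The midpoint fell in an intron of the host gene in 767 members (76.2%, 73.4% to 78.7%), in a non-coding part of an exon of a protein-coding gene in 141 (14.0%), in a coding exon in 57 (5.66%) and in an exon of a non-coding gene in 42 (4.17%). The host gene was the protein-coding gene at the midpoint where there was 1, and otherwise a long non-coding RNA gene, the longest of several. An exonic midpoint was found in 23.8% of the members (21.3% to 26.6%) and in 4.60% of the regular windows. The exon share of the members was 13.9% when no base was allowed in a promoter or terminal window, and 5.69% (3.67% to 8.71%) with windows of 2000 bp on either side, an interval that holds the 4.60% of the windows of the full territory. Counting any contact, 441 members (43.8%) touched an exon, against 9.12% of the windows. The shared gene-body peaks were exonic in 32.4% (30.2% to 34.8%), and the interval does not overlap that of the members, whereas the untreated-only gene-body peaks were exonic in 22.7% (19.9% to 25.7%). Among peaks of 500 bp alone, the exon share was 23.4% in members and 32.3% (28% to 36.9%) in shared peaks.

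**Figure D1:**
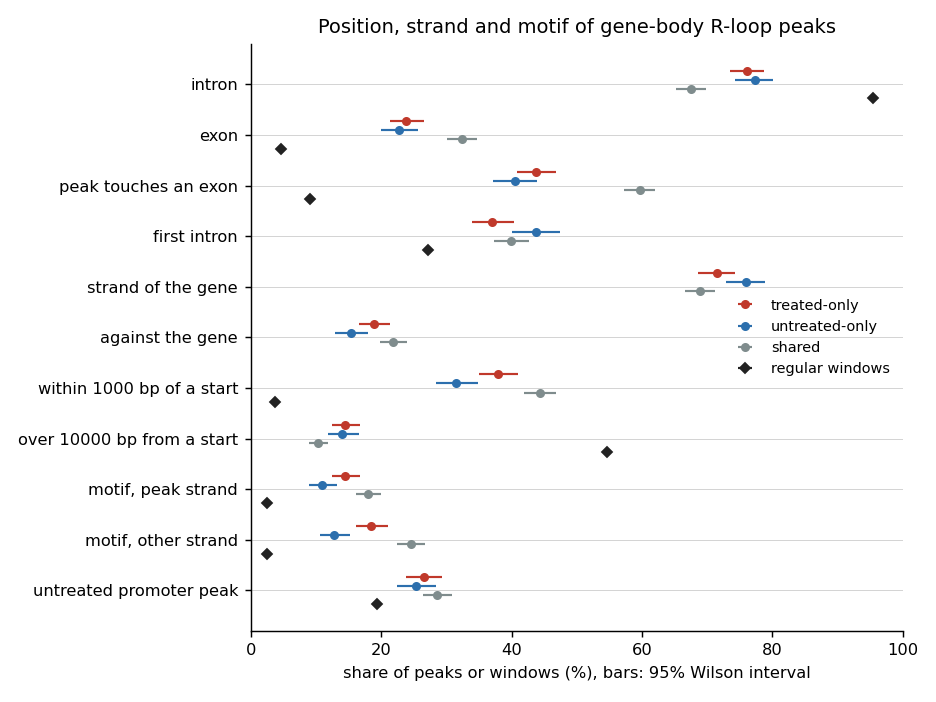
Shares of treated-only gene-body peaks (the 1007 members), untreated-only gene-body peaks (803), shared gene-body peaks of the treated list (1573) and regular 500 bp windows (312175) with each property on the horizontal axis in percent, with 95% Wilson intervals as bars. Members were exonic in 23.8%, between the windows at 4.60% and the shared peaks at 32.4%, and lay within 1000 bp of a start in 37.9%.

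In the canonical transcript, the first intron was the most frequent place. Of 856 members inside the canonical transcript of their host gene, 317 (37.0%, 33.9% to 40.3%) had the midpoint in intron 1. Intron 2 held 84, intron 3 held 47, and introns beyond number 10 held 82 together. Intron 1 took 27.2% of the regular windows. The share of the members was 26.9% (22.0% to 32.4%) with windows of 2000 bp on either side of starts and ends and 28.1% (23.8% to 32.9%) in members at least 750 bp wide. Both intervals hold the 27.2% of the regular windows of the full territory, which were not set again for the narrower one. Untreated-only gene-body peaks were in intron 1 in 43.8% (40.1% to 47.5%) and shared ones in 39.9% (37.3% to 42.6%).

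Many members were close to a start. The median distance of a member to the nearest annotated start of either strand was 1997 bp (1667 to 2359 bp), against 11744 bp for the regular windows. Within 1000 bp of a start lay 382 members (37.9%, 35% to 41.0%) and 3.67% of the windows, and more than 10000 bp from every start lay 146 members (14.5%) and 54.6% of the windows. In the nearest class, 288 members had their midpoint within 500 bp of a start. Of these, 247 (85.8%, 81.3% to 89.3%) were on the strand of that start, 144 were in intron 1 of the canonical transcript and 247 touched an exon. The share of peaks within 500 bp of a start was 28.6% (25.9% to 31.5%) among members, 21% (18.4% to 24.0%) among untreated-only and 35.9% (33.5% to 38.3%) among shared gene-body peaks. These 3 intervals do not overlap each other. Without replicate lists, it cannot be told apart whether such a difference comes with the treatment or with how the 2 lists were called.

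Along the whole gene, members were spread from end to end. The relative position, the distance from the start of the host gene over its length, had a median of 0.365 (0.327 to 0.419). The regular windows had a median of 0.488, the untreated-only gene-body peaks 0.323 (0.291 to 0.366) and the shared ones 0.336 (0.296 to 0.377). With windows of 2000 bp on either side of starts and ends, the members had a median of 0.508 (0.459 to 0.575). Members at least 750 bp wide had 0.503 (0.444 to 0.564). Both intervals hold the 0.488 of the regular windows of the full territory, which were not set again for the narrower one. In base pairs, the median member lay 12961 bp (10621 to 15927 bp) downstream of the start of a host gene of 56065 bp. The shared gene-body peaks lay at 7430 bp in genes of 41390 bp.

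Orientation divided the members. Genes at the midpoint were all on the strand of the peak in 720 members (71.5%, 68.6% to 74.2%), all on the opposite strand in 190 (18.9%, 16.6% to 21.4%) and on both strands in 97 (9.63%). Members on the strand of the gene had a median relative position of 0.301 (0.228 to 0.336), and 254 of the 720 (35.3%) lay in the first 10% of the gene. Members on the opposite strand sat toward the other end, with a median of 0.680 (0.604 to 0.760), and 48 of the 190 (25.3%) lay in the last 10%. Untreated-only gene-body peaks on the opposite strand had a median of 0.494 (0.358 to 0.570), and shared ones 0.704 (0.645 to 0.761).

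**Figure D2:**
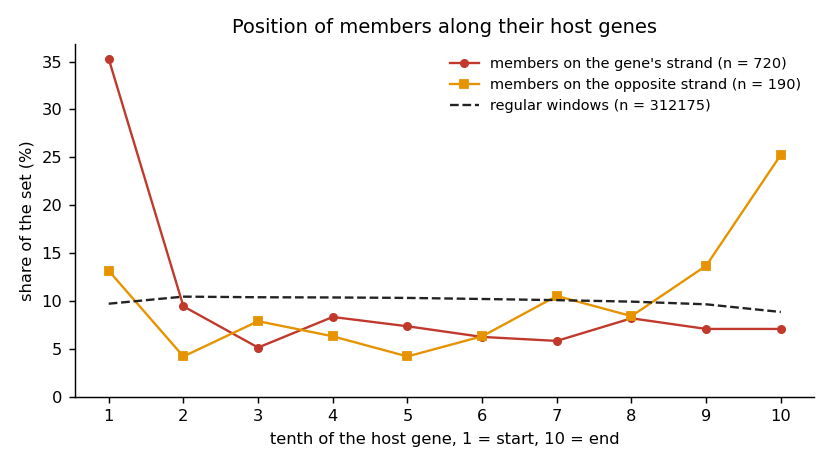
Share of members in 10 equal parts of the host gene (horizontal axis, from 1 at the start to 10 at the end), for the 720 members on the strand of the gene, the 190 on the opposite strand and the 312175 regular windows. The first bin holds 35.3% of the members on the gene's strand, and the last bin holds 25.3% of those on the opposite strand.

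The opposite-strand members commonly lay past the end of another gene that pointed toward them. For each of the 190, the nearest transcript end upstream on the strand of the peak was found, and 123 of these ends belonged to a protein-coding gene. The median distance past that end was 4538.5 bp (3461 to 6246 bp), with 38 members within 2000 bp and 123 (64.7%, 57.7% to 71.2%) within 10000 bp. Regular windows read against their gene gave a median of 77299 bp and 8.72% within 10000 bp. By the rule no midpoint could lie less than 1000 bp past an end. The same was seen in the other gene-body peaks on the opposite strand, with 69.1% (60.5% to 76.6%) within 10000 bp for untreated-only and 79.7% (75.1% to 83.6%) for shared ones. Among members on the strand of their gene, 45.0% (41.4% to 48.7%) lay within 10000 bp of an upstream end of their strand. Here the end could also belong to a shorter transcript of the host gene itself. Members with genes on both strands gave 47.4% (37.8% to 57.3%), and regular windows read with their gene gave 19.9%. Transcripts that run past the annotated ends were not measured here.

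**Figure D3:**
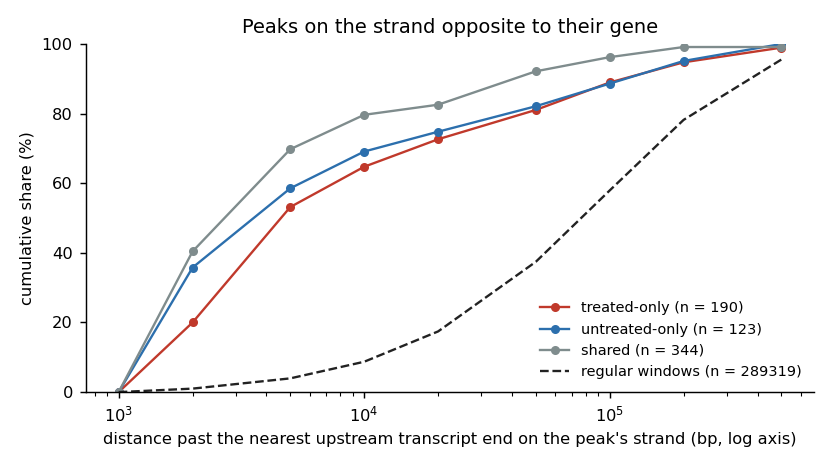
Cumulative share in percent of gene-body peaks on the strand opposite to their gene, by the distance in bp past the nearest upstream transcript end of their own strand (log axis), for treated-only (190), untreated-only (123) and shared peaks (344) and for regular windows read against their gene (289319). At 10000 bp the members reach 64.7% and the windows 8.72%.

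Examples of this arrangement came from the genes named by fixed rules. In SLC2A12, a glucose transporter gene, the opposite-strand member lay 1507 bp past the end of TBPL1. In SLC23A1, a vitamin C transporter gene, it lay 4488 bp past the end of PAIP2. The 1750 bp member in the last exon of ITGA11, an integrin gene, lay 3808 bp past the end of FEM1B, and the 500 bp member in LHX4 lay 3325 bp past the end of ACBD6. Other opposite-strand members were far from such an end. The opposite-strand member in SLC8A1, the gene of a sodium-calcium exchanger, was 196021 bp from the nearest upstream end of its strand, and the one in TLK2, a kinase gene, was 43054 bp away.

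The base composition of the members followed their distance to a start. The median GC content was 54.7% (53.8% to 55.9%) against 40% in the regular windows, 50.9% (50.1% to 51.6%) in untreated-only gene-body peaks and 55.6% (54.7% to 56.2%) in shared ones. The 288 members within 500 bp of a start had 64.2% GC (62.9% to 65%) and an observed over expected ratio of CpG of 0.758, and 28.5% (23.6% to 33.9%) held a motif on the strand of the peak. The 146 members more than 10000 bp from any start had 50% GC (48.4% to 51.3%), a CpG ratio of 0.333 and a motif in 7.53% (4.26% to 13.0%). Even these remote members were thus more GC-rich than the territory. The GC content of the members stood above that of the untreated-only peaks within 500 bp of a start, at 64.2% against 60.2% (58.6% to 61.6%). Between 500 and 1000 bp it was 58.8% (57.0% to 60.9%) against 52.3% (50.4% to 54.8%), and between 2000 and 5000 bp it was 50% against 50.4%. It was 50% against 47.3% between 5000 and 10000 bp and 50% against 47.0% (45.6% to 48.6%) farther away. The intervals of the members and the untreated-only peaks overlap in each class beyond 1000 bp. These intervals cover counting error over peaks only, and a difference in GC content between the conditions could not be tested.

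**Figure D4:**
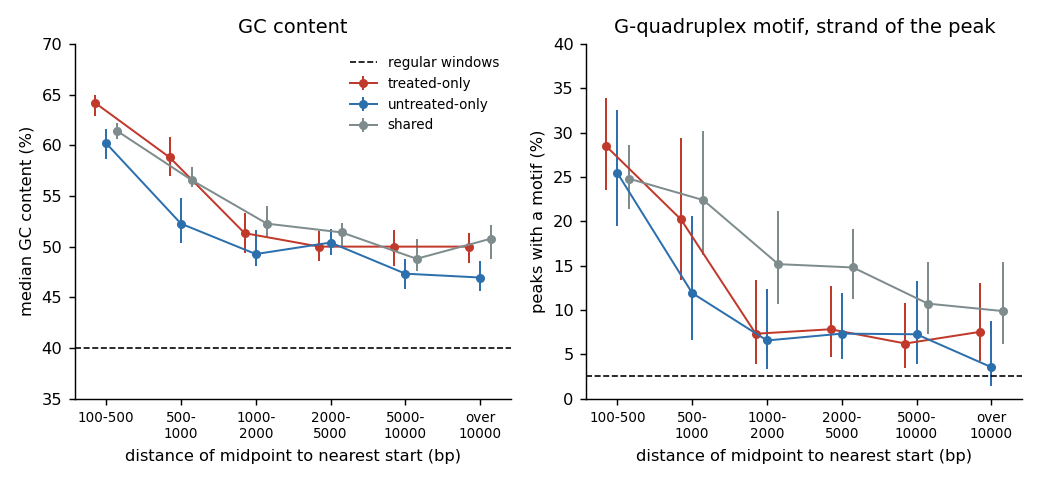
Median GC content (left, percent, with distribution-free 95% intervals) and share of peaks with a G-quadruplex motif on the strand of the peak (right, percent, with 95% Wilson intervals) by distance of the midpoint to the nearest start in bp, for treated-only, untreated-only and shared gene-body peaks. The dashed line is the value of the regular windows, 40% GC and 2.51% with a motif. Members fall from 64.2% GC within 500 bp of a start to 50% beyond 10000 bp.

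Guanine was not in excess on the strand of the members as a whole. The median GC skew was -0.0150 (-0.0211 to -0.00441) on the strand of the peak, and it was -0.0109 (-0.0164 to -0.00621) in shared and 0.0203 (0.0127 to 0.0298) in untreated-only gene-body peaks. The intervals of the members and the untreated-only peaks do not overlap, but they cover counting error over peaks only. With 1 list per condition, a difference in skew between the conditions could not be tested. Members on the strand of their gene had a median skew of 0 (-0.0114 to 0.00935), and those on the opposite strand had -0.0460 (-0.0676 to -0.0301). The G-quadruplex motif was on the strand of the peak in 112 of 720 members on the gene's strand (15.6%, 13.1% to 18.4%) and in 19 of 190 on the opposite strand (10.0%, 6.50% to 15.1%), with overlapping intervals. The untreated-only gene-body peaks held the motif on the strand of the peak in 11% (8.98% to 13.3%) and on the other strand in 12.7% (10.6% to 15.2%), and the shared ones in 18% (16.2% to 20.0%) and 24.5% (22.5% to 26.7%).

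The 1007 members lay in 950 host genes. Of the members, 850 were in protein-coding genes (84.4%, 82.0% to 86.5%) and 132 in long non-coding RNA genes (13.1%), and the rest were mainly in pseudogenes. There were 898 genes with 1 member, 47 with 2 and 5 with 3. No untreated peak lay in the gene or within 1000 bp of it for 436 of the 950 (45.9%, 42.7% to 49.1%). The corresponding share for the untreated-only gene-body peaks was 349 of 775 genes (45.0%, 41.6% to 48.6%). Over all 20176 protein-coding genes, 7897 (39.1%, 38.5% to 39.8%) had an untreated peak in the gene or within 1000 bp of it, and the others had none. A shared gene-body peak was also present in 118 host genes (12.4%) and an untreated-only one in 79 (8.32%). Of the 20176 protein-coding genes, 1147 held a shared gene-body peak and 632 an untreated-only one. These genes were not matched to the host genes in length. A near-identical copy elsewhere in the genome, over at least 90% of the length at 95% identity or more, was found for 78 members (7.75%), for which the aligner may have divided reads between copies.

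A promoter peak in the untreated list was not the rule for the host genes. It was present at the host gene of 267 members (26.5%, 23.9% to 29.3%), and 304 (30.2%, 27.4% to 33.1%) had a promoter peak in the treated list. For the regular windows these shares were 19.3% and 22.4%. The untreated promoter share was 25.3% (22.4% to 28.4%) for untreated-only and 28.5% (26.4% to 30.8%) for shared gene-body peaks. The 3 intervals overlap.

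The genes with 3 members were KANSL1L, RDX, GPR180, CCDC138 and CROCC. In KANSL1L, a paralog of a chromatin complex subunit, all 3 members were on the plus strand while the gene is on the minus strand. They lay 124391, 137891 and 144516 bp from the start of a gene of 149989 bp. At 124391 and 137891 bp, a gene on the plus strand also covered the midpoint. The 3 members were the only peaks of either list in the 3′ part of the gene, 123000 to 143000 bp from any untreated peak. The last of them lay 4633 bp past the end of RPE, an enzyme gene of the pentose phosphate pathway that points the same way as the peaks. Both lists held a peak on each strand at the start of KANSL1L, with the same borders.

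In RDX, which encodes the actin-membrane linker radixin, the 3 members lay 957, 79207 and 202707 bp from the start of a record of 432417 bp, and the untreated list had no peak in the gene. The first was in intron 1 of the canonical transcript, and the others were outside that transcript. The last was on the strand opposite to RDX, where another gene also covered its midpoint, 612 bp from the nearest annotated start. In GPR180, the members at 315, 10065 and 22315 bp lay in introns 1, 2 and 7. The untreated list held 2 peaks in this gene, both on the same strand and both without a treated partner. The last of the 3 members touched the second of them, which began at the next base.

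CCDC138 had a member in intron 4 and 2 exonic members 96943 and 97943 bp from the start, beyond the end of its canonical transcript. In the region of CROCC, the gene of the ciliary rootlet protein rootletin, the 3 members clustered within 1750 bp, 2 on the plus and 1 on the minus strand, in sequence of 53.0% to 75.8% GC outside the canonical transcript. The treated list held 12 and the untreated list 8 peaks in that gene record.

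**Figure D5:**
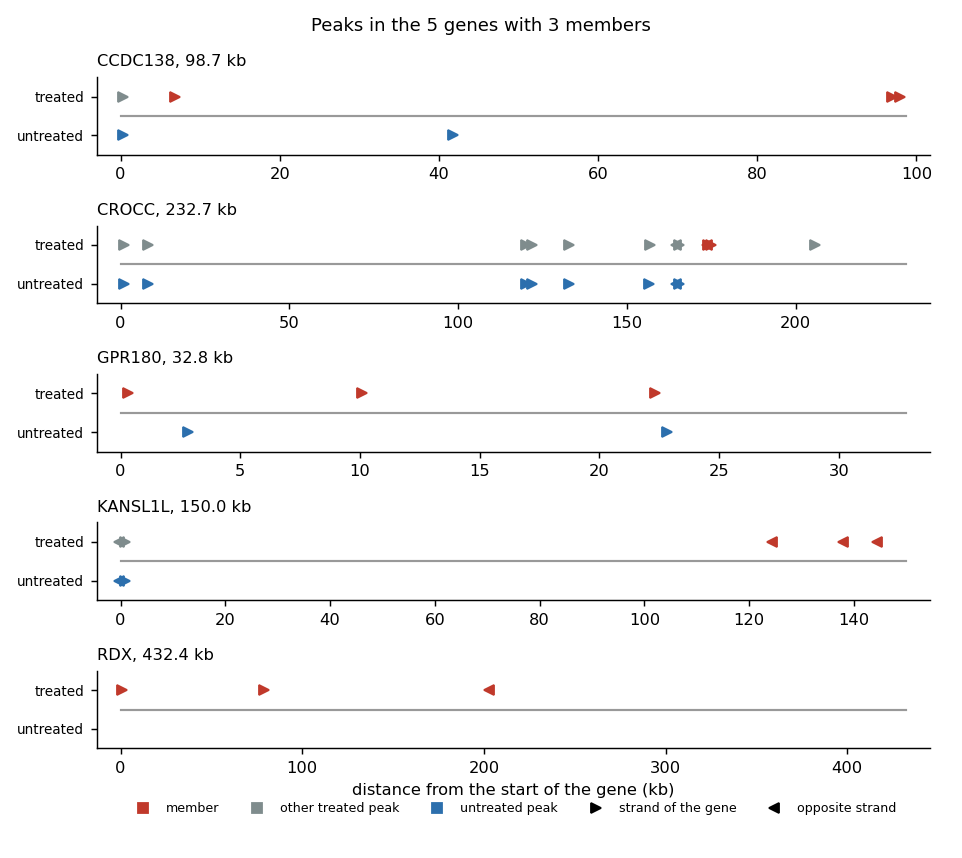
Peaks of the treated list (upper row, members in red and other peaks in grey) and of the untreated list (lower row, blue) by distance from the start of the gene in kb, for the 5 genes with 3 members, with triangles pointing right for peaks on the strand of the gene and left for the opposite strand. The 3 members of KANSL1L point left near the 3′ end, and RDX has no untreated peak.

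Among the 47 genes with 2 members, a few were singled out after their values were seen. In SMC1A, a cohesin subunit gene, both members were exonic at the very end of the gene, at relative positions of 0.963 and 0.994. In CENPA, the gene of the centromeric histone variant, both were intronic at 0.509 and 0.951, downstream of a promoter that had an untreated peak. DIS3L2, a 3′ to 5′ exoribonuclease gene, had 2 intronic members, at 592 and 24842 bp, and no untreated peak.

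The widest members measured 2250 bp, in the pseudogene POM121B and in CFAP92, and 2000 bp in GCNA, which encodes a germ cell protein of the SprT protease family. The other 7 among the 10 widest measured 1750 bp and lay in WNK4, VAX2, PUS7, TLK2, ITGA11, NFX1 and SCOC. Of these, WNK4, a kinase gene of renal salt transport, and PUS7, a pseudouridine synthase gene, had their member at 370 and 771 bp from the start, at 64.5% and 60.9% GC. The members in SCOC and ITGA11 lay in the last exon, at relative positions of 0.988 and 0.977 and at 40.5% and 45.0% GC. In VAX2, a homeobox gene of the developing eye, the wide member was on the opposite strand at 0.559, and a second member of 1000 bp lay 612 bp from the start on the strand of the gene. POM121B had 2 near-identical copies elsewhere.

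The members farthest from the start of their gene lay in very long genes. In EYS, a gene of photoreceptors, a member of 500 bp lay in intron 42, 1983287 bp from the start. It was on the strand opposite to EYS, where another gene also covered its midpoint. In GPHN, the gene of the inhibitory synapse scaffold gephyrin, it lay 549257 bp from the start in intron 10, and in CDK14, a cyclin-dependent kinase gene, 462660 bp in intron 8. The others were in the long non-coding RNA gene ENSG00000288692 at 460980 bp and in GSE1 at 385167 bp, both on the strand opposite to the host gene. The nearest annotated start of either strand was 1275 bp away in GSE1, 1984 bp in GPHN and 5978 bp in ENSG00000288692. It was 17142 bp away in EYS and 26709 bp in CDK14. The GC content of these members ranged from 42.8% in EYS to 66.2% in GSE1. GPHN and GSE1 each had an untreated promoter peak, and the other 3 had none.

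Of the 18 members that touched an untreated peak, the widest were in LAMB2P1 with 1250 bp, PABPC4L with 1000 bp, and TRPC1, TAF15 and C15orf40 with 750 bp each. All 5 were on the strand of their host gene. In TRPC1, a cation channel gene, the member lay 936 bp from the start in intron 1, and in TAF15, an RNA-binding protein gene of the FET family, 40762 bp from the start at a GC skew of 0.30.

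Genes of DNA repair and of R-loop processing were read against all protein-coding genes. A member was found in 803 of 20176 protein-coding genes (3.98%). Among 29 genes of nucleotide excision repair, which removes bulky lesions, it was found in 0, which allows a share of up to 10.3%. Among 22 genes of translesion synthesis it was found in 1 (4.55%), HLTF, a DNA translocase at stalled forks, in intron 2 at 7029 bp from the start. Of 34 Fanconi anemia and homologous recombination genes, 2 (5.88%) had 1 member each, FANCI and FANCD2, whose proteins form a clamp on DNA at crosslinks, in introns 2 and 26, on the strand of the gene. The FANCD2 member had 64.6% GC and was 60250 bp from an untreated peak of its strand, and the FANCI member had 44.7% GC and was 7500 bp away.

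Of 36 genes of R-loop processing, TOP3B, TDRD3 and DDX17 had a member (8.33%). TOP3B is a topoisomerase that acts on RNA and DNA, and TDRD3 is its Tudor-domain partner. The TOP3B member lay 199 bp from the start, in intron 1 of the canonical transcript and an exon of another, at 66.4% GC and a skew of 0.14. The TDRD3 member lay in intron 5 at 77835 bp, and TDRD3 had no untreated peak. In DDX17, a DEAD-box RNA helicase gene, the member lay in intron 11 of the canonical transcript and an exon of another, at a relative position of 0.688, 750 bp from an untreated peak of the same strand. Of 45 genes of RNA polymerase II elongation and termination, CTR9, a subunit gene of the PAF complex, had a member.

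Of 22 genes at common fragile sites, GPHN and NAALADL2 had a member, and that of NAALADL2 was only 3030 bp from the start of a gene of 1371974 bp. Of 43 histone lysine methyltransferase and demethylase genes, MECOM and DOT1L had 1 each, both in intron 1 of the canonical transcript, at 2420 and 1913 bp from the start, and neither gene had an untreated peak. The 57 Wnt pathway genes and the 66 protocadherin genes had 0, which allows up to 5.26% and 4.55%. These lists are small, and counts of 1 to 3 genes do not set any of them apart from the 3.98% of all protein-coding genes.

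The larger families gave similar shares. Of 566 zinc-finger genes, 21 had a member (3.71%), 22 members in all. Of those, 21 were on the strand of their gene or on both strands, and the exception was ZNF862, whose member lay 250 bp from an untreated peak. In intron 1 within 500 bp of the gene start lay the members of ZNF136 at 216 bp, ZNF823 at 229 bp, ZNF101 at 240 bp, ZNF766 at 342 bp and ZNF414 at 456 bp, at 60.8% to 71% GC. ZNF638 had 2 members, at 877 and 92627 bp, and the first touched an untreated peak. Of 110 homeobox genes, HOXC13, HOXD13, HOXD3, LHX3 and LHX4 had a member (4.55%). The HOXD13 member lay in the last exon, 500 bp from an untreated peak, at 41.7% GC, whereas that of HOXD3 lay in intron 1 with a motif on its strand.

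Of 337 solute carrier genes, 7 had a member (2.08%). Among them SLC8A1, SLC2A12, SLC23A1 and SLC9A5 carried it on the strand opposite to the gene. In SLC37A2 the member lay 246 bp from the start at 70% GC with a motif on each strand, and in SLC39A8, a metal ion importer gene, at a relative position of 0.963. Of 44 collagen genes, COL18A1 and COL4A6 had members. COL18A1 had the G-rich repeat shown above at a relative position of 0.880 and a minus-strand member at 0.965 with 72.6% GC, 500 bp from an untreated peak. In COL4A6, the member lay 1207 bp from the start of the gene in exon 1 of the canonical transcript.

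Members were found on every autosome and on the X chromosome. Chromosome 1 held the most, 101, followed by chromosome 2 with 72, and chromosome 21 held 14. Per Mb of gene-body territory, estimated from the regular windows, chromosomes 19 and 22 had 1.78 and 1.48 members, and chromosomes 8 and 3 had 0.218 and 0.437. As a share of the gene-body peaks of the treated list, members on the autosomes ranged from 27.7% (18.3% to 39.6%) on chromosome 8 to 54.1% (38.4% to 69.0%) on chromosome 18. On the X chromosome the share was 44.6% (35.8% to 53.9%), and 25.0% of the untreated gene-body peaks there had no treated partner. Both strands of the genome were used, with 533 members on the plus strand (52.9%, 49.8% to 56.0%).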

How the data were processed

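R-loops were mapped by spKAS-seq in wild-type HEK293T cells, untreated or exposed to N2-heptynyl-dG. Trimming by the authors used Trim Galore, and Bowtie2 at default settings placed the reads on hg19. They removed duplicates with Picard MarkDuplicates and defined R-loops from 2 replicates by the published spKAS-seq procedure. The deposited values are peak coordinates and strand, with no count, height or score, so that depth and replicate spread are unknown. How the strand column was assigned is not given in the sources used here.

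Peaks were placed on GENCODE release 44 mapped to GRCh37 by their midpoint, with the windows and the host-gene rule given in the report. The regular windows were 500 bp long and set every 5000 bp. Shares carry 95% Wilson intervals and medians distribution-free binomial intervals, for counting error only, since peaks are not replicates. The share that a count of 0 allows was taken as 3 counts of the total and is not a Wilson limit. No test between conditions was possible. Near-identical copies were searched with minimap2 2.31. Sequences were read with samtools 1.23.1 and pysam 0.24.0, intervals were computed in Python 3.11.15 with scipy 1.17.1, numpy 2.4.6 and pandas 2.3.3, and plots were drawn with matplotlib 3.10.9. The functions were tested on simulated data, where 600 of 600 planted peaks and 400 of 400 planted motifs were found.

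Genes were named when they held 3 or more members, the 10 widest members, the 5 farthest from the start of the host gene, up to 5 members touching an untreated peak, or a member of a fixed gene list. Others were chosen after their values were seen. The members and lists were chosen with earlier results of these data known. The alternatives changed the overlap rule, the distance to untreated peaks, the windows, the annotation, the peak width, the mappable sequence, the transcript, the host gene and the motif loops. Some genes and sequences that these rules name are not reported here.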

Additional observations from a re-analysis of the deposited data

How the results depend on the processing

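Each of 10 results was recomputed under alternatives that changed 1 choice at a time, which gave 94 values, 84 of them planned and 10 added after seeing the data. Of these, 67 stayed within the counting interval of the reported value, or for the number of members within a set factor, 27 moved further and 0 reversed. With windows of 2000 bp on either side of starts and ends, there were 334 members, with a motif on the strand of the peak in 8.08%, a GC content of 50.3%, an exon share of 5.69%, a first intron share of 26.9% and a relative position of 0.508. When no base was allowed in a promoter or terminal window, there were 635 members, and these values were 9.92%, 51.6%, 13.9%, 33.8% and 0.472, with an untreated promoter peak at 29.9% of the host genes. The 459 members at least 750 bp wide had 51.0% GC, a first intron share of 28.1%, a relative position of 0.503 and a distance of 36250 bp to the nearest untreated peak. With protein-coding genes only, GC content was 56.2%, the relative position 0.315 and the untreated promoter share 29.4%. In the canonical transcript the exon share was 21.1% and the relative position 0.323. Loops of 1 to 12 bases gave a motif share of 24.3%. The distance was 38250 bp when under 50% of a member could be covered by untreated peaks, and 53250 bp for members at least 1000 bp from them. The sense share, 81.1% with any gene at the midpoint, was 77.4% with the 1 host gene. Leaving out near-identical copies, an alternative chosen after seeing the data, moved none of the 10. The cause of these shifts was not tested, also where the alternative itself removes peaks near starts or near untreated peaks.

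No paired analysis was possible because there is 1 list per condition, and for the same reason no replicate was left out. Depth and peak heights are unknown. How the calling threshold divides the lists was not tested.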
